A study of Mus musculus with 3 samples.

Results

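The Hippo effector genes examined here are Yap1 and Wwtr1 (which encodes TAZ), Tead1, Tead2, Tead3 and Tead4, Lats1 and Lats2, Amotl2 and Vgll4. Peaks of the transcription factor NR2F2 were taken for a gene when the nearest curated RefSeq transcription start site (TSS) was a TSS of that gene, or when the peak lay within 50 kb of one of its TSSs. This gave 14 of the 10069 peaks in the data. They belonged to 8 of the 10 genes, and Tead4 and Lats2 had none. For 12 of the 14 peaks, belonging to 7 genes, the Hippo gene was also the nearest gene.

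In the Hippo pathway, the kinases LATS1 and LATS2 phosphorylate the coactivators YAP and TAZ, which keeps them out of the nucleus. Coactivators that reach the nucleus bind DNA through the TEAD transcription factors and turn on genes of growth and of the cytoskeleton. AMOTL2 holds YAP in the cytoplasm, and VGLL4 competes with the coactivators for TEAD proteins. In the fetal testis NR2F2 (COUP-TFII), an orphan nuclear receptor, is known as a protein of interstitial cells, the compartment in which the steroid-producing Leydig cells form.

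NR2F2 occupancy was profiled with ChIP-seq, the sequencing of DNA pulled down with an antibody to NR2F2, in CD-1 mouse testes at embryonic day E14.5, freed of the mesonephros, with no mutant allele or treatment named for any library. The 2 ChIP libraries were independent experiments, with sheared chromatin from 30 pooled testes, and 1 input library of sheared chromatin served as the background. Whole testes were used, so a count at a peak averages over all cell types of the organ and cannot be given to one of them. The values were raw read counts in peaks of 300 bp (mm10), and over all peaks the input totalled 73251 reads and the ChIP libraries 426784 (replicate 1) and 364261 (replicate 2). The full depth of the libraries is not known from these counts.

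The sequences of several of these peaks are shown first, those with a hexamer that nuclear receptors recognise or with a TEAD site. The hexamer was in 8 of the 14 peaks (57.1%), close to the 58.9% of all peaks. The hexamer searched was AGGTCA or GGGTCA, on both strands, so that it can also appear as TGACCT or TGACCC. The TEAD site searched was GGAATG, which reads CATTCC on the other strand. All sequences are from the GRCm38 (mm10) genome, 5′ to 3′ on the plus strand unless stated, with matches to these letters in capitals.

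The peak inside Vgll4 (chr6:114941793-114942092) held 2 hexamers in the same orientation with 1 base between them, the arrangement called a direct repeat 1 (DR1). It is shown whole, since it was the only DR1 match among the 14 peaks. Each unit of the repeat also matched the longer NR2F2 site searched (AGAGGTCA or AGGGGTCA), and the capitals mark both matches.

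Vgll4 peak 1: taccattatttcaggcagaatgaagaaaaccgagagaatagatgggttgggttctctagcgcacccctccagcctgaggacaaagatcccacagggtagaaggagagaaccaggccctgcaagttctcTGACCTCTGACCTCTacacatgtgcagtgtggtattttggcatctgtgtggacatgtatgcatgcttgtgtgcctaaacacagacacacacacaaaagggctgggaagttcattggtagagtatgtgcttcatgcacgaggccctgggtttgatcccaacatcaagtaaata

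The Amotl2 peak covered the TSS. The 195 bases upstream of the TSS within the peak (chr9:102717609-102717803) are shown because a TEAD site and a hexamer stood there with 28 bases between them, 65 and 31 bases before the TSS at their first base.

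Amotl2 peak 1: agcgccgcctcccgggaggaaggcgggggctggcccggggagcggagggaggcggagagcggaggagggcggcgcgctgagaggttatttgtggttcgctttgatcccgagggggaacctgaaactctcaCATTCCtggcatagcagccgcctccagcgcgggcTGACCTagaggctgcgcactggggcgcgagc

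The Tead1 peak directly upstream of the TSS (chr7:112678911-112679210) held 1 TEAD site. It is shown because the letters recognised by TEAD proteins lay in a peak at the start of a TEAD gene.

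Tead1 peak 2: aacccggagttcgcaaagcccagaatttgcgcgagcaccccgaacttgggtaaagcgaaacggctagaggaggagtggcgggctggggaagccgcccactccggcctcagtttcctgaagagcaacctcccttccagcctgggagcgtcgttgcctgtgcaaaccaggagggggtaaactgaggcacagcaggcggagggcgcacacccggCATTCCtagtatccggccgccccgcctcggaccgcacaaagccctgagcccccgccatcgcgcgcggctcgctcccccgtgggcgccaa

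For other peaks the 30 bases around a hexamer are shown. The Wwtr1 site (chr3:57575868-57575897) lay 5 bases from the centre of its peak, and that of Tead3 (chr17:28351758-28351787) 1 base. The Tead2 site (chr7:45241039-45241068) held 2 adjacent hexamers 88 bases from the centre, and the second of them lay in a match to CAAGGTCA, the site of the nuclear receptor NR5A1 (SF-1). The Tead1 site is that of the peak deep in intron 1 (chr7:112743915-112743944), and the Lats1 site lay at the Katna1 promoter (chr10:7725742-7725771).

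Wwtr1 peak 1: ttgaattatgcaTGACCTcctggccggagc

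Tead3 peak 1: ggaaatgcccggAGGTCAcggagaggggtg

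Tead2 peak 1: ggagtcgcgAGGTCAAGGTCAccgtgcccc

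Tead1 peak 4: gggggaggggccGGGTCActagcgaggact

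Lats1 peak 2: taagagagccccTGACCTcctaacctcaga

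**Figure D1:**
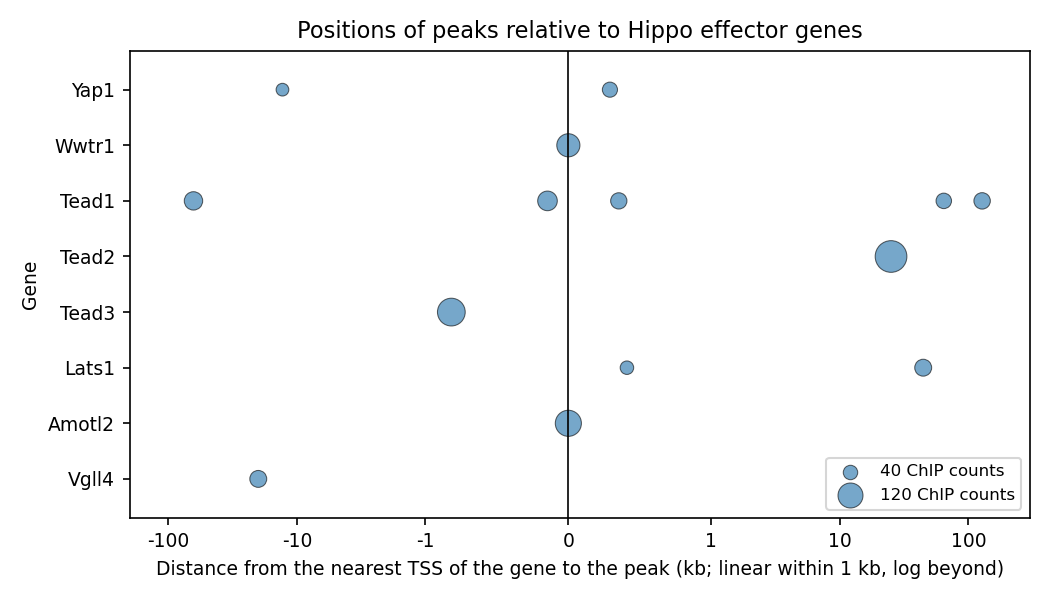
Distance of each of the 14 peaks from the nearest TSS of its Hippo gene, in kb on an axis that is linear within 1 kb and logarithmic beyond, with negative values upstream. Each circle is 1 peak and its area follows the summed count of both ChIP libraries. Peaks sat within 1 kb of a TSS at 6 genes, while the peaks taken for Tead2 and Vgll4 lay 25024 and 19972 bp away. The share of all genes with a peak within 1 kb was not determined.

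The plot of positions shows where NR2F2 peaks lay around each gene. Peaks within 1 kb of the gene's own TSS were found at Yap1, Wwtr1, Tead1, Tead3, Lats1 and Amotl2. Of all peaks, 58.0% lay within 1 kb of a TSS. The share of all genes with such a peak was not determined, so these genes cannot be set against it. Over all 26180 annotated genes, 8068 (30.8%) were the nearest gene to a peak, and 54.5% had a peak within 50 kb of a TSS. Among the Hippo effector genes the corresponding numbers were 7 and 8 of 10. The genes were chosen with peaks in these data known, so these counts describe the choice.

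In each library, ChIP counts were compared with the input. The ratio of a ChIP count to the input count, with 0.5 added to each, is given as the mean of the 2 ChIP libraries with its SD. Both ratios at a peak share the same input count and are not scaled for depth. The SD, and equal ratios in both libraries, therefore leave out the error of the input. Counts were also tested against the input with the quasi-likelihood test of edgeR, all libraries taken as equally deep. By that test, 80.7% of all peaks were above input at an adjusted p under 0.05. The authors called the peaks on the merged ChIP reads, so a count above input was built into the choice of peaks. A further test, with scaling on the counts at peaks (TMM), asked whether a peak was enriched more or less than the typical peak. Here 1.53% of all peaks were above and 0.0497% below the typical ratio.

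Of the 14 Hippo effector peaks, 13 were above input, a count to be read against that 80.7% and against the way peaks were called. The calls rest on the assumed depths and on the fit. If the ChIP libraries were 2 times deeper than the input, edgeR called 0 of the 14 and 0 of all peaks, although 3928 of all had an unadjusted p under 0.05. DESeq2 at equal depths called 9 of the 14 and 6146 of all 10069 peaks. No peak of the 14 was above or below the typical ratio (edgeR adjusted p from 0.604 to 0.982), and 0 reached an unadjusted p under 0.05. With DESeq2 and its own size factors, 0 were called as well, and 13 of the 14 were given no adjusted p. The standard errors of these log2 differences ran from 0.40 to 1.07, so that a peak of this set could be stronger or weaker than the typical one without passing the test.

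**Figure D2:**
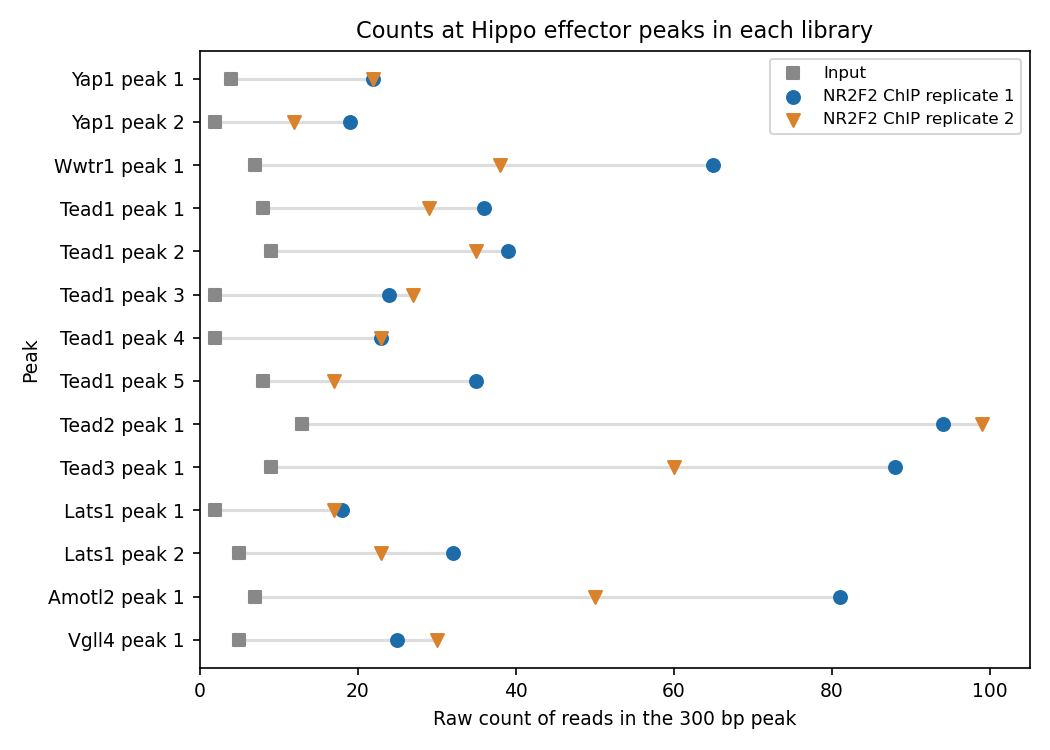
Raw counts of reads in each of the 14 peaks (x axis) in the input library (squares) and in NR2F2 ChIP replicates 1 (circles) and 2 (triangles). Both ChIP counts were above the input count at every peak shown, from 12 counts at the weaker library of Yap1 peak 2 to 99 at Tead2 peak 1.

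Among the coactivators, NR2F2 peaks lay at the start of both genes and the one at Wwtr1 had more ChIP reads. Yap1 (gene identifier 22601, chr9:7931999-8004596, minus strand) encodes YAP. Its first peak (chr9:8004006-8004305) lay 291 bp downstream of the TSS, with its midpoint in a coding exon. The input held 4 counts there, and ChIP replicates 1 and 2 held 22 and 22. The ratio was 5.00 in both libraries, and the log2 difference from input was 2.42 ± 0.31 (SE, edgeR adjusted p = 0.0311). DESeq2 gave an adjusted p of 0.0543 there, and the adjusted p of all alternatives ran from 0.000295 to 0.122.

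The second Yap1 peak (chr9:8017545-8017844) lay outside any gene, 12949 bp upstream of the TSS. It held 2 counts in the input and 19 and 12 in the ChIP libraries, the lowest summed ChIP count of the 14 peaks. That sum was at percentile 2.73 of all peaks. Over 2 input counts the mean ChIP count was 7.75 times the input, with an exact 95% interval of 1.97 to 66.8 that covers counting error only. Its excess over input rested on few reads (edgeR adjusted p = 0.0432).

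Wwtr1 (97064, chr3:57455644-57575910, minus strand) encodes TAZ, the partner of YAP. Its peak (chr3:57575738-57576037) covered a TSS, with its midpoint in the 5′ UTR. The input held 7 counts, ChIP replicate 1 held 65 and replicate 2 held 38. The ratio was 6.93 ± 2.55 (SD, n = 2), and the log2 difference from input was 2.86 ± 0.67 (SE, edgeR adjusted p = 0.0440). Replicate 1 stood well above replicate 2 there, but the split did not differ from that of all reads at peaks (exact binomial p = 0.0747, adjusted p = 0.624). Both ChIP counts were higher than either ChIP count at the peaks of Yap1.

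The TEAD genes differed most in the number of peaks: 5 at Tead1, 1 each at Tead2 and Tead3, and none at Tead4. Tead1 (21676, chr7:112679356-112906784, plus strand) spans 227429 bp and has a single annotated TSS. Of the 8068 genes nearest to a peak, 41 (0.508%) had 5 or more peaks. With predicted transcripts added to the curated ones, 4 of the 5 peaks stayed with Tead1, below that number. Tead1 was chosen with its peaks known, and the part of its length in the number of peaks was not tested. The peak farthest from the TSS lay 127858 bp downstream of it.

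The peak 146 bp upstream of the Tead1 TSS, peak 2, had the highest summed ChIP count of the 5, though not the highest ratio to input. It held 9 counts in the input and 39 and 35 in the ChIP libraries, a ratio of 3.95 ± 0.298 (SD, n = 2). Peak 1, farther upstream and outside any gene, held 8 in the input and 36 and 29 in the ChIP libraries. At both peaks the replicates were close to each other, and the log2 difference from the typical ratio was below 0, at -0.28 ± 0.55 and -0.29 ± 0.58 (SE). Peak 1 was above input by edgeR (adjusted p = 0.0330) and not by DESeq2 (adjusted p = 0.0521), with a range of 7.78e-05 to 0.155 over the alternatives.

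Peak 3 (chr7:112679709-112680008) began 353 bp downstream of the TSS and its midpoint was in intron 1. It held 2 counts in the input and 24 and 27 in the ChIP libraries. Peak 4, 64352 bp downstream in the same intron, held 2 in the input and 23 and 23 in the ChIP libraries. These were the peaks with the highest ratios of the 14, 10.4 ± 0.849 (SD, n = 2) and 9.40 in both libraries. Their input counts were low, and their summed ChIP counts were at the 27.5th and 20.8th percentiles of all peaks. With exact 95% intervals of 3.35 to 108 and 3.01 to 97.8, counting error alone left their enrichment open over a wide range.

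Peak 5 (chr7:112807214-112807513), in intron 2, held 8 counts in the input, 35 in ChIP replicate 1 and 17 in replicate 2. It had the lowest ratio of the 14, 3.12 ± 1.50 (SD, n = 2), and it was the only one not above input (log2 difference 1.68 ± 0.75, SE, edgeR adjusted p = 0.132). The call depended on the fit, since robust fitting gave an edgeR adjusted p of 0.00491 and scaling the replicates to equal totals at peaks gave 0.00172.

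Tead2 (21677, chr7:45215792-45233468, plus strand) had no peak as the nearest gene. The peak within 50 kb (chr7:45240816-45241115) lay 25024 bp downstream of the Tead2 TSS, beyond the end of the gene, and 63 bp from a TSS of Slc6a16, in its 5′ UTR. It had the highest summed ChIP count of the 14, with 13 counts in the input, 94 in ChIP replicate 1 and 99 in replicate 2. Its summed ChIP count was at the 97.7th percentile of all peaks, and its input count at the 94.1st. The ratio was 7.19 ± 0.262 (SD, n = 2), and the log2 difference from input was 2.88 ± 0.26 (SE, edgeR adjusted p = 0.0311). That SE was 0.47 with robust fitting and 0.73 with DESeq2.

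Tead3 (21678, chr17:28331671-28350805, minus strand) had a peak 819 bp upstream of its nearest TSS (chr17:28351624-28351923). The midpoint of the peak lay in the 3′ UTR of the neighbouring gene Tulp1, and 245 of its 300 bases were annotated as UTR. The input held 9 counts, ChIP replicate 1 held 88 and replicate 2 held 60, and the summed ChIP count was at the 93.8th percentile of all peaks. The ratio was 7.84 ± 2.08 (SD, n = 2), and the log2 difference from input was 3.02 ± 0.51 (SE, edgeR adjusted p = 0.0320). Both ChIP counts at Tead3 were higher than any ChIP count at the 5 Tead1 peaks.

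Tead4 (21679, chr6:128227143-128300813, minus strand) had no peak by the rule. The nearest one lay 100114 bp from its TSS, near 9330102E08Rik, with 7 counts in the input and 33 and 35 in the ChIP libraries. A wider window of 100 kb did not bring in a peak for Tead4 either.

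Of the genes of the LATS kinases, which restrain YAP and TAZ, Lats1 had 2 peaks and Lats2 had none. Lats1 (16798, chr10:7681209-7716461, plus strand) had a peak in intron 1 (chr10:7681619-7681918), 410 bp downstream of the TSS. It held 2 counts in the input and 18 and 17 in the ChIP libraries, a summed ChIP count at percentile 7.18 of all peaks. The mean ChIP count was 8.75 times the input, with an exact 95% interval of 2.25 to 75.1 for counting error, and the ratio of 7.20 ± 0.283 (SD, n = 2) was at the 79.3rd percentile of all peaks. The replicates were within 1 count of each other.

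A further peak (chr10:7725718-7726017) lay 44509 bp downstream of the Lats1 TSS, where it covered the TSS of Katna1, its nearest gene. The input held 5 counts and the ChIP libraries held 32 and 23, so that the ratio was 5.09 ± 1.16 (SD, n = 2). Katna1 encodes a subunit of katanin, which severs microtubules.

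Lats2 (50523, chr14:57689662-57746123, minus strand) had no peak within 50 kb. The nearest lay just past that limit, 51944 bp from a Lats2 TSS at the gene Sap18, with 9 counts in the input and 81 and 84 in the ChIP libraries. This peak just outside the window had a higher summed ChIP count than 13 of the 14 peaks of the Hippo effectors, while the peak nearest to the limit from inside, at Katna1, shared the 7th rank with the Vgll4 peak.

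Amotl2 (56332, chr9:102717804-102733417, plus strand) encodes an angiomotin-like protein of cell junctions. Its peak (chr9:102717609-102717908) covered the TSS, and its summed ChIP count was the third highest of the 14. It held 7 counts in the input, 81 in ChIP replicate 1 and 50 in replicate 2, a ratio of 8.80 ± 2.92 (SD, n = 2). The log2 difference from input was 3.20 ± 0.63 (SE, edgeR adjusted p = 0.0357), and that from the typical ratio was 0.90 ± 0.53 (SE, edgeR adjusted p = 0.604), the smallest p of the 14. The summed ChIP count was at the 90.4th percentile, against the 51.0th for the input.

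Vgll4 (232334, chr6:114860628-114969203, minus strand) encodes a cofactor that occupies TEAD proteins in place of YAP and TAZ. Its peak, the one with the DR1, lay in intron 2 of the longer transcript and 19972 bp upstream of the TSS of the shorter one. It held 5 counts in the input and 25 and 30 in the ChIP libraries. The ratio was 5.09 ± 0.643 (SD, n = 2), and the log2 difference from the typical ratio was 0.15 ± 0.69 (SE, edgeR adjusted p = 0.979). The summed ChIP count of the peak with the repeat was at the 33.1st percentile.

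Ordered by summed ChIP count, the 4 highest peaks were those of Tead2, Tead3, Amotl2 and Wwtr1, followed by Tead1 peak 2. In this order, 9 of the 13 pairs of neighbours had ChIP counts that overlapped between the peaks. Tead2 peak 1 did not overlap with Tead3 peak 1. The exact binomial test found 0 of the 14 peaks that differed between the ChIP replicates, at an adjusted or an unadjusted p under 0.05. Over all peaks, 0.0993% differed after adjustment and 8.83% before it.

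**Figure D3:**
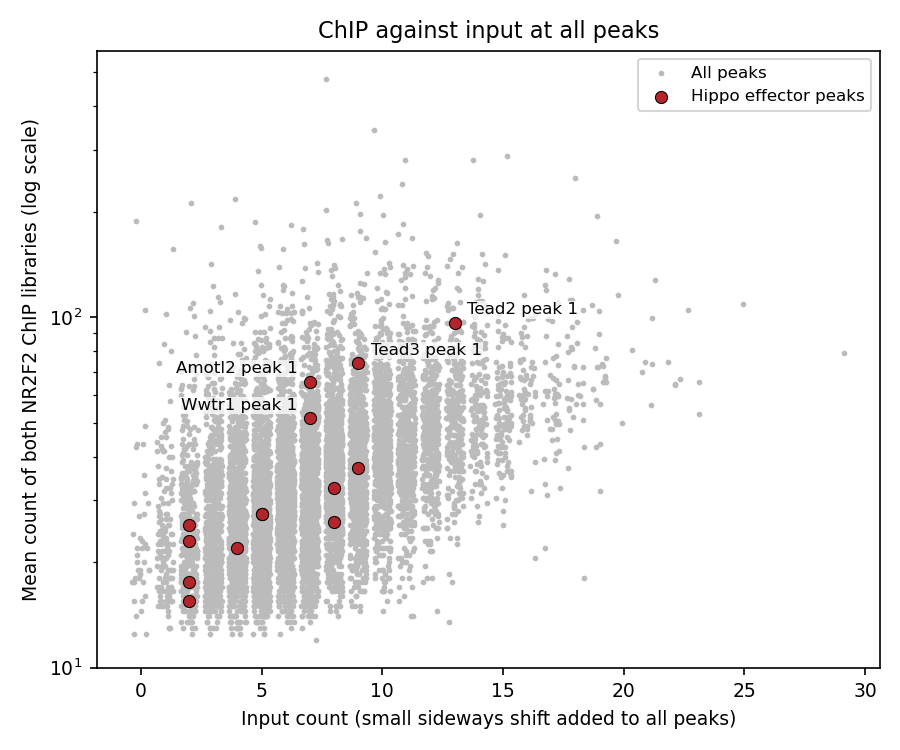
Input count (x axis) against the mean count of both ChIP libraries (y axis, log scale) at all 10069 peaks (grey) and at the 14 Hippo effector peaks (red). The red points lie inside the cloud of all peaks, from 2 to 13 input counts, and those of Lats1 peak 2 and Vgll4 peak 1 coincide.

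The plot of ChIP against input counts places the 14 peaks among all others. Their median ratio was 6.27 ± 1.32 (SD, n = 2 libraries), with 7.20 in replicate 1 and 5.34 in replicate 2, against 4.75 ± 0.505 over all peaks. The log2 difference from the typical ratio was above 0 at 11 of the 14, against 5152 of all 10069 peaks, and had a median of 0.565, against 0.0157. Low input counts went with this: 4 of the 14 peaks (28.6%) had at most 3 input counts, against 11.9% of all peaks. The part of low input in the higher median was not tested. With 5 in place of 0.5 added to each count, the median ratio was 3.44 ± 0.172 (SD, n = 2 libraries), against 3.28 ± 0.306 over all peaks.

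Position and base composition were close to those of all peaks. A TSS was covered, or lay up to 1 kb downstream of the peak, at 5 of the 14 peaks (35.7%), against 36.0% of all. With either side of the TSS counted, 9 of the 14 (64.3%) lay within 1 kb, against 58.0%. These are TSSs of any gene, those of Slc6a16 and Katna1 among them. Of the 12 peaks with a Hippo effector gene as the nearest, 7 (58.3%) lay within 1 kb of its TSS. GC content had a median of 65.8% (range 48.3 to 73.3) against 60.7% over all peaks. Split by position, the 9 peaks within 1 kb of a TSS had a median of 67.3% against 65.3%, and the 5 farther ones had 53.3% against 53.3%.

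The hexamer AGGTCA or GGGTCA, whose share in all peaks was given with the sequences, was present in 26.6% of windows of the same length 2 kb to either side of all peaks. The longer site AGAGGTCA or AGGGGTCA, each of which contains a hexamer, was present in 1 peak (7.14%), against 10.5% of all peaks and 2.80% of flanking windows. In the 28 windows flanking the Hippo effector peaks themselves, the hexamer was present in 35.7% and the longer site in 10.7%. A DR1, AGGTCA repeated with any base (N) between, was present in 1.24% of all peaks and in 0.0547% of flanking windows, so that the Vgll4 peak was 1 of 125 with these letters. CAAGGTCA, which overlaps the hexamer, was present in 1 of the 14, at Slc6a16, and in 6.72% of all peaks.

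**Figure D4:**
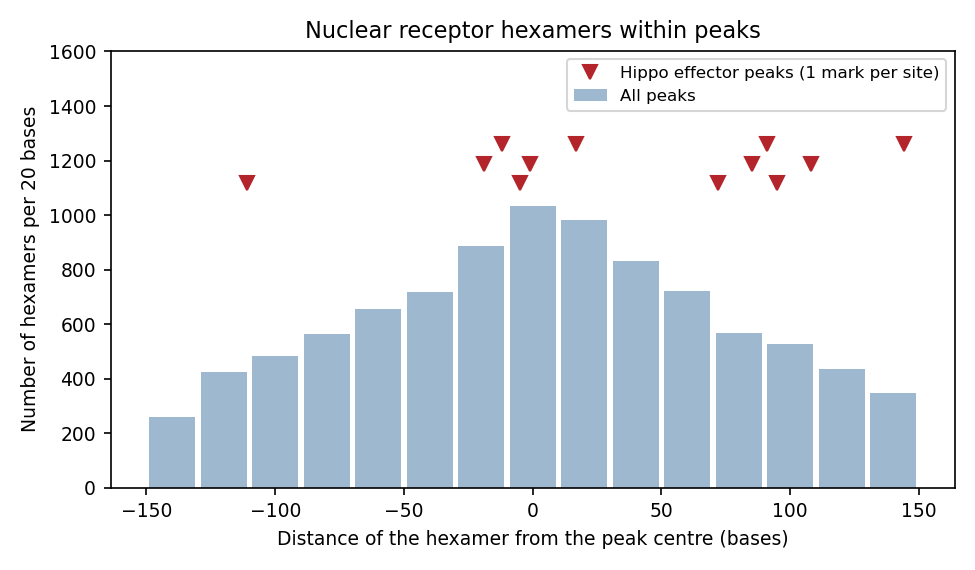
Number of receptor hexamers (AGGTCA or GGGTCA) per 20 bases (bars, y axis) by distance from the peak centre in bases (x axis), over the 5928 of all peaks that hold one. Triangles mark the 12 hexamers of the Hippo effector peaks, at heights without meaning, and 5 of them lie within 20 bases of the centre.

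Hexamers were densest at the peak centres over all peaks, as the plot of hexamer positions shows. At least 1 hexamer lay within 20 bases of the centre in 29.3% of the 5928 peaks that held one. The same was seen in 4 of the 8 Hippo effector peaks with a hexamer, those of Wwtr1, Tead3, Amotl2 and Vgll4. In Tead1 peak 4 the hexamer lay 72 bases from the centre, and in the Tead2 peak the adjacent pair lay 88 bases from it.

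The TEAD site GGAATG was present in 3 of the 14 peaks (21.4%), Tead1 peak 2 and Amotl2 among them, against 14.8% of all peaks and 14.6% of flanking windows. The AP-1 site TGANTCA was present in 1 peak, Tead1 peak 5, against 4.98% of all peaks. None of the sites searched was found in the peaks of Yap1, in Tead1 peak 3 or in Lats1 peak 1. These are matches of letters in 300 bp and say nothing on whether a protein was bound at them.

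Promoters of the genes were also searched, from 250 bases before to 50 bases after each RefSeq start (GRCm38.p6), where 8 of the 10 genes had an entry. GGAATG was present in a promoter of 6 of the 8 genes, Yap1, Wwtr1, Tead3, Lats2, Amotl2 and Vgll4, against 16.6% of 27025 genes. A hexamer was present at 4 of the 8 genes, Yap1, Wwtr1, Lats2 and Amotl2, against 30.1% of all. The longer NR2F2 site was present at 1, Lats2, against 3.01% of all, which is shown because this gene had no peak. Its first base lay 16 bases before the outermost TSS, in the promoter window chr14:57746074-57746373, and the sequence runs on the minus strand, the strand of the gene.

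Lats2 promoter: gacgcgggaggAGGGGTCAcgtgacgcccg

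The Lats2 promoter thus held the longer site without a peak, whereas the Vgll4 peak held it far from the promoters of that gene. At Wwtr1 and Amotl2 the hexamer of the promoter window was the one inside the peak.

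Other genes of the pathway were then looked up, with peaks given by nearest gene. Of 22 upstream regulators, 19 had a peak, 30 peaks in all, of which 25 were above input and 0 above or below the typical ratio. The shares over all genes and peaks to read these counts against, here and for the lists that follow, are the 30.8% of genes nearest to a peak and the 80.7% of peaks above input. For the typical ratio they are 1.53% of all peaks above and 0.0497% below, so that 0 in a short list is near the share over all peaks. The highest summed ChIP counts were at Slmap, whose protein guides a phosphatase complex to the Hippo kinases, with 99 and 80 counts over 11 in the input, and at the scaffold gene Rassf1, with 87 and 64 over 13. Wwc2, of the KIBRA family, had 58 and 71 over 5, and shared the next place with the kinase gene Taok3, with 67 and 62 over 4. Of the 30 peaks, 1 differed between the ChIP replicates (exact binomial adjusted p = 0.00402), against 0.0993% of all peaks. It was nearest to Frmd6 and held 7 counts in the input, 10 in ChIP replicate 1 and 40 in replicate 2. No peak was nearest to Limd1, Map4k4 or Stk4.

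Of 7 paralogues of the effectors, 4 were nearest to a peak (30.8% of all genes), 5 peaks in all, of which 3 were above input (80.7% of all peaks). Amotl1, a relative of Amotl2, had 34 and 49 ChIP counts over 4 in the input. Stk38, which encodes a kinase related to LATS1, had 31 and 28 over 5. Vgll3 had 34 and 22 over 13, a ratio of 2.11, and was not above input (edgeR adjusted p = 0.120). Amot, Vgll1 and Vgll2 were not the nearest gene to any peak.

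Of 15 genes known as targets of YAP and TAZ, 7 were nearest to a peak (30.8% of all genes), 11 peaks in all, of which 10 were above input (80.7% of all peaks). At Fjx1 the ChIP libraries held 48 and 58 counts over 6 in the input, and at Tgfb2 they held 57 and 44 over 8. A peak 107248 bp upstream of Ccn2, the gene of connective tissue growth factor, held 35 and 58 over 3. Ccn1, Ankrd1, Axl, Myc, Birc5, Crim1, Nuak2 and Arhgef17 were not the nearest gene to any peak, but with peaks within 50 kb of a TSS counted, 10 of the 15 target genes had one (54.5% of all genes). In none of these lists was a peak above or below the typical ratio, against 1.53% above and 0.0497% below over all peaks. The median of the mean ratios was 5.17 for the upstream regulators, 4.23 for the paralogues and 6.09 for the targets.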

How the data were processed

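NR2F2 ChIP-seq of whole E14.5 mouse testes comprised 2 ChIP libraries and 1 input library, grouped by the sample labels. Each file deposited by the authors gave raw read counts at the same 10069 peaks. Per the study's methods, the authors trimmed reads with Trim Galore 0.6.7, mapped them to mm10 with Bowtie2, removed duplicates with Picard 1.110, merged the ChIP replicates, called peaks with HOMER 4.11.1 and resized them to 300 bp. For the assignment of reads to peaks, the rule was not given in the sources used here. Removal of duplicates limits high counts in a short interval, and peaks were selected for high ChIP counts, the lowest sum over both ChIP libraries being 24. The totals at peaks are not sequencing depths, and a median of 7 input counts limits every ratio.

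Peaks were assigned to 26180 genes of curated RefSeq transcripts on GRCm38, the same assembly as mm10, by distance from the nearer edge of the peak. Motifs were exact matches on both strands. Tests used edgeR 4.0.16 (glmQLFit and glmQLFTest, R 4.3.3) over all peaks and libraries with Benjamini-Hochberg adjustment at 0.05, and the spread of the lone input was taken to equal that of the ChIP libraries. ChIP replicates were compared by an exact two-sided binomial test against their totals at peaks. DESeq2 1.42.0, other scalings, depths, filters, windows and pseudocounts served as alternatives. Fits were tested on simulated counts. Against the typical ratio, 78 of 100 peaks raised 4-fold were recovered, but 24 of 100 lowered 4-fold, with 7 false calls. The absence of peaks below the typical ratio therefore says little. Above input at equal depth, 7824 of 9869 enriched peaks were called, and 4 of 200 without enrichment. Exact intervals cover counting error only. Percentiles are ranks among all peaks, with ties at their mean rank.

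The genes and the lists of other pathway genes were chosen with earlier results of these data known. Every peak of the 10 genes is named, and in each other list the 3 genes whose strongest peak had the highest summed ChIP count, with ties. The 5 peaks on unplaced contigs entered the fits but had no position relative to genes. The sequence of Tead1 peak 1 is not reported here.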

Additional observations from a re-analysis of the deposited data

How the results depend on the processing

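The comparison with the input is limited by whole-library depth, which is not known, and by the choice of fit. If ChIP depth was assumed to be 2 times that of the input, edgeR called 0 of the 14 Hippo effector peaks and 0 of all peaks above input (3928 of all at an unadjusted p under 0.05), against 13 and 8122. The median log2 difference from input over all peaks was 1.33 at that depth. It was not run with robust fitting or with scaled replicates. With at least 10 input counts required, 1 of the 14 peaks, that near Tead2, could be tested, and 1 was called, against 2149 of the 2427 peaks left to test. DESeq2 called 9 of the 14, against 6146 of all 10069 peaks: the adjusted p was 0.0543 at Yap1 peak 1 and 0.0521 at Tead1 peak 1, and it gave none to Yap1 peak 2 and Lats1 peak 1. Tead1 peak 5 passed with robust fitting, with scaled replicates and with the ChIP libraries 2 times shallower, each giving 14 of 14, against 9816, 9853 and 9858 of all 10069 peaks.

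Relative to the typical ratio, 0 of the 14 peaks were called under any alternative with a test. Without ChIP replicate 1 or 2 no test was possible, and the log2 ratio was compared only as a value. Over all peaks the 154 above and 5 below became 39 and 0 with DESeq2 size factors, 102 and 7 without TMM, and 22 and 0 with DESeq2. With at least 10 input counts they were 58 and 4 of the 2427 peaks left to test. With the replicates taken as equally deep, 23 of all peaks differed between them in place of 10.

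A window of 100 kb gave 22 peaks in place of 14. Counting 1 kb on both sides of a TSS made 9 peaks TSS proximal in place of 5. The longer NR2F2 site was in 2.80% of windows flanking all peaks, against 10.5% of the peaks. The median ratio of the Hippo effector peaks was 3.44 with 5 added to each count (3.28 over all peaks) and ranged from 5.34 to 7.20 without 1 of the ChIP replicates. No paired analysis was possible because a single input library, whose label gives no replicate number, served both ChIP libraries.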
